A study of Arabis alpina with 2 samples.

Results

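The 351 sites described here are mutagen-type single-base changes on chromosomes 4 and 7 in a pool of mutant plants of Arabis alpina, a perennial crucifer related to Arabidopsis. They are G-to-A or C-to-T changes of the pool list that reach a variant quality of 25 and 10 reads of coverage, at positions absent from the list of the progenitor. Chromosome 4 held 154 of them and chromosome 7 held 197, of 1390 such markers in the whole pool. The other chromosomes held 988 and unplaced sequences held 51. Variant quality, coverage, type of change and absence from the progenitor list chose these markers, and allele frequency and position did not, apart from the bearing of a low frequency on the quality.

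The study mapped a mutation by sequencing genomic DNA of flower buds from plants of the accession Pajares, grown in long days and taken at the start of reproduction. The tested library came from eop055 BC1F2 plants, which descend from a mutant line selfed, backcrossed once to its own progenitor and selfed again, and which were picked by mutant phenotype. The comparison library came from that progenitor, pep1-1, so both libraries carry the pep1-1 background. Each group had 1 library, so every value below describes these libraries with no replicate check. How many plants went into either was not given in the sources used here.

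Alkylating mutagens such as ethyl methanesulfonate act mainly on guanine, and the modified base pairs with thymine at replication. A change that began at a guanine of the strand written in the assembly is read as G-to-A, and one that began on the opposite strand is read as C-to-T. In a family made by a backcross and selfing, an allele that is not linked to the selected change is passed on freely. Its expected frequency in the pool is 0.5 if each backcross plant behind the pool carried that allele. Whether each did is not known here. Markers that lie close together are passed on together, so neighbouring frequencies are not independent measurements.

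Positions follow the chromosomes of the authors' assembly, with the first base as 1. The names of both variant sheets end in V3_6, and no source used here says what that label stands for, so no build is named. A name such as G2477783A gives the assembly base, the position and the base in the pool. Genes, exons and flanking sequence at these positions were not analysed here. By the rule that chose them no marker is in the progenitor list, so each has 1 allele frequency, that of the pool. That list holds only variant sites, so the progenitor's reads at a marker are unknown. Allele frequencies are reads with the new base over all reads, given with Wilson 95% intervals, which cover counting error only.

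The pool list held 1223 sites with these changes on the 2 chromosomes, and 764 of them were also at a position of the progenitor list. Of the 459 others, 106 fell below the quality minimum, with medians of 0.396 for allele frequency and 58 reads for coverage, and 2 more fell below the coverage minimum. Just inside the quality minimum were G8458188A on chromosome 7 and C16132390T on chromosome 4, both at 25.5. Just outside it were G39615280A at 24.5 and G49396113A at 23.5, both on chromosome 7. The lowest coverages kept were 18 reads at G6218219A and 19 reads at G15843619A on chromosome 7, and the nearest left out was G11636623A on chromosome 4 with 6 reads.

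Markers were spread over nearly the whole of both chromosomes, and more thinly on chromosome 4. The first marker of chromosome 4 lay 1.29 Mb from the start, at G1288476A, and the last was G52230317A. Chromosome 7 ran from C51214T to G49657564A, which lay 0.892 Mb before the last position listed there in either library. Up to that last listed position, the density was 2.92 markers per Mb over 52.7 Mb of chromosome 4 and 3.90 per Mb over 50.5 Mb of chromosome 7. The other chromosomes together had 4.75 per Mb, with a range from 3.17 on chromosome 2 to 7.97 on chromosome 5. Neighbouring markers were a median of 175 kb apart on chromosome 4 and 166 kb apart on chromosome 7. The medians were close, but the spacing was not otherwise alike. Chromosome 4 had more gaps over 1 Mb (14 against 5) and more under 10 kb (20 against 12). Its median complete 1 Mb bin held 2 markers, against 4 on chromosome 7.

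**Figure D1:**
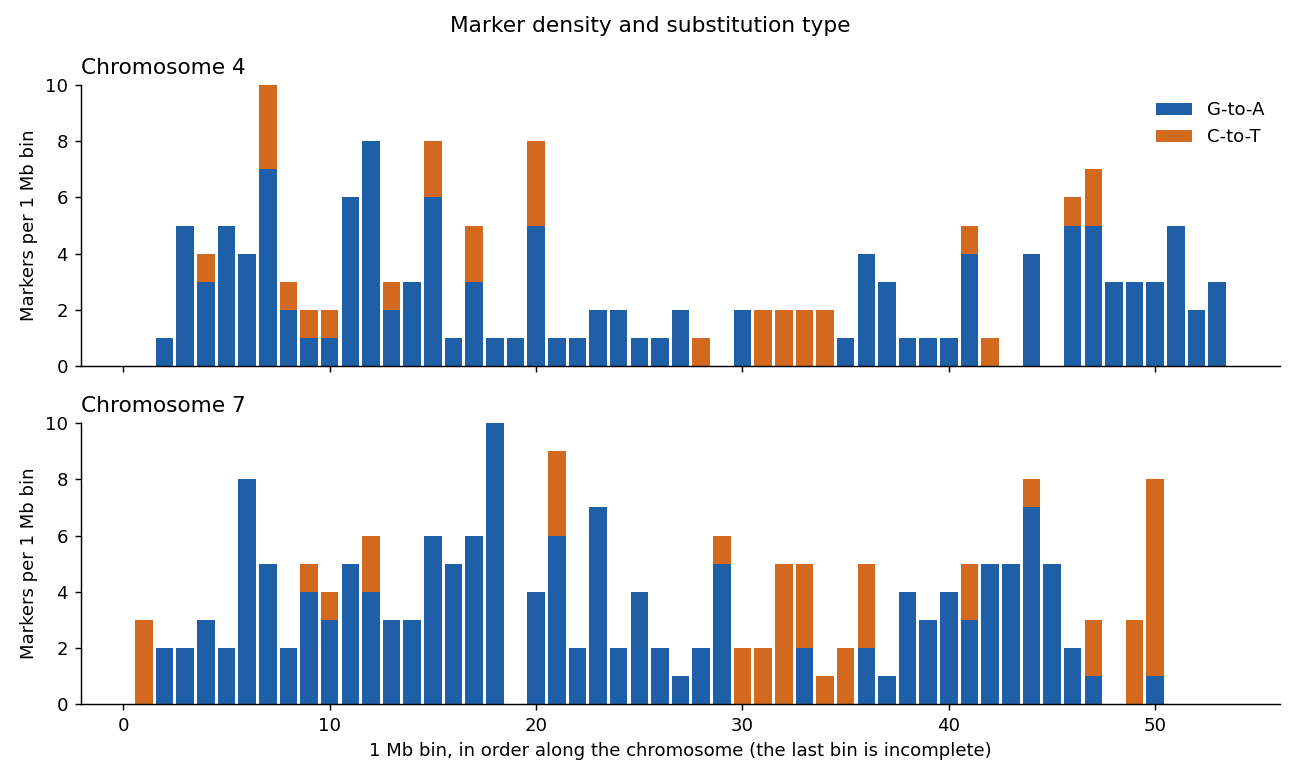
Number of markers in consecutive 1 Mb bins along chromosomes 4 and 7, stacked by type of change, with G-to-A in blue and C-to-T in orange. The fullest bin of each chromosome holds 10 markers, and stretches of C-to-T bars stand between longer stretches of G-to-A bars.

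Marker-poor spans were more frequent on chromosome 4. It had 14 gaps of more than 1 Mb between neighbouring markers, with a total of 17.5 Mb or 33.2% of its length, against 5 such gaps with a total of 6.39 Mb or 12.6% on chromosome 7. Of the other chromosomes, chromosome 2 had 11 such gaps (47.7% of its length) and the rest had 1 to 3. The longest gap of chromosome 4 ran for 1.93 Mb from C27145500T to G29075558A. The next ran for 1.74 Mb from C41439187T to G43176880A and for 1.54 Mb from G43549548A to G45090412A, so those 2 gaps flank a cluster of 4 markers between 43 and 44 Mb. On chromosome 7 the longest was 1.66 Mb, from G17730804A to G19389431A, followed by 1.42 Mb from C46735254T to C48150555T and 1.13 Mb from C33293811T to C34428634T. No difference in density between chromosomes was tested.

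The gaps were not empty of variants. Those over 1 Mb held 395 listed pool sites on chromosome 4, of which 100 were G-to-A or C-to-T changes that did not qualify, and 141 on chromosome 7, with 42 such changes. Their density of listed pool sites was 22.5 per Mb on chromosome 4, against 43.5 per Mb in the rest of that chromosome when the markers are left out, and 22.1 against 35.5 per Mb on chromosome 7. A few clustered bins weigh on these figures for the rest: on chromosome 4 the fullest 3 bins of 1 Mb held 602 pool sites, of which 302 lay at 14 to 15 Mb, and on chromosome 7 they held 510, of which 236 lay at 20 to 21 Mb. The progenitor list, which played no part in defining the gaps other than by removing sites, was thinner there as well. It had 22.5 sites per Mb in the gaps of chromosome 4, against 46.7 elsewhere on it, and 22.8 against 36.9 per Mb on chromosome 7. Clustered bins weigh on these figures too, with 312 progenitor sites at 14 to 15 Mb of chromosome 4 and 243 at 20 to 21 Mb of chromosome 7. The 2 lists are also not independent: 764 of the 1223 G-to-A or C-to-T pool sites were at a position of the progenitor list. Single gaps differed widely, from 8.12 to 53.1 listed pool sites per Mb on chromosome 4 and from 7.23 to 63.6 on chromosome 7.

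In bins of 5 Mb, chromosome 4 was densest at 10 to 15 Mb with 28 markers, 45 to 50 Mb with 22 and 5 to 10 Mb with 21. It was sparsest at 25 to 30 Mb with 6, 20 to 25 Mb with 7 and 30 to 35 Mb with 9, so the thin stretch of chromosome 4 lay in its middle. On chromosome 7 the densest bins were 40 to 45 Mb with 28 markers, 15 to 20 Mb with 25, and 5 to 10 Mb and 20 to 25 Mb with 24 each. Its sparsest bins were 0 to 5 Mb with 12, 25 to 30 Mb with 13 and 30 to 35 Mb with 15. In bins of 1 Mb, 4 of 52 complete bins of chromosome 4 and 2 of 50 of chromosome 7 held no marker, and the median bin held 2 markers on chromosome 4 and 4 on chromosome 7.

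G-to-A changes prevailed on both chromosomes. They were 125 of 154 markers on chromosome 4 (81.2%, 95% interval 74.3 to 86.6%) and 153 of 197 on chromosome 7 (77.7%, 71.3 to 82.9%). Over all the other chromosomes the share was 63.0% (59.9 to 65.9%), but that figure spans 20.1% on chromosome 1 to 93.7% and 93.8% on chromosomes 8 and 3. Markers of 1 type followed each other in runs, so sites are not independent and these intervals are too narrow.

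With all markers counted, runs of 10 or more markers of 1 type took most markers of chromosome 7 and fewer of those of chromosome 4. Chromosome 7 had 26 runs, of which 8 held 10 or more markers and together took 153 of its 197 markers. Its longest run was 43 G-to-A markers over 8.45 Mb, from G11662573A to G20115001A. The next were 24 G-to-A markers over 6.01 Mb, from G1669079A to G7678105A, and 22 over 7.67 Mb, from G20333619A to G28005048A. Chromosome 4 had 33 runs, with 5 of 10 or more markers that took 73 of its 154. The longest were 19 G-to-A markers over 4.94 Mb from G47289417A to G52230317A, 17 over 2.20 Mb from G9937677A to G12134700A, and 14 over 6.04 Mb from G34866732A to G40909220A.

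Neighbours on chromosome 7 shared their type in 87.2% of 196 pairs, where the proportions of the types alone, with order ignored, give 65.3%. On chromosome 4 the figures were 79.1% of 153 pairs and 69.4%. Among the markers with no more than 100 reads, which are called markers of ordinary depth below, they were 87.4% and 78.1% on chromosome 4 and 89.6% and 67.1% on chromosome 7. The number of runs of chromosome 4 was then 17 in place of 33, and its longest run was 25 markers. Runs of 10 or more markers then took 106 of 128 markers on chromosome 4 and 154 of 183 on chromosome 7. The contrast in such runs seen with all markers was thus absent at ordinary depth. With all markers counted, the other chromosomes ran from 63.6% like neighbours on chromosome 5 to 88.7% on chromosome 3. The proportions alone give 51.9% and 88.3% there. On chromosome 6 they were 87.5% and 50.0%. At ordinary depth the range was 64.2% on chromosome 5 to 93.1% on chromosome 8, where the proportions alone give 51.9% and 93.4%. Chromosome 6 then had 90.3% and 50.0%. These shares are descriptions without a test.

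The C-to-T markers of ordinary depth lay mostly in a few blocks. On chromosome 4, 8 consecutive C-to-T markers, with no G-to-A marker among them, spanned 3.29 Mb from C30264716T to C33549795T, and another 8 stood alone or in a pair elsewhere. In that block C33226600T was lowest, with 12 of 44 reads (0.273), and C30264716T was highest, with 30 of 55 (0.545). On chromosome 7 a block of 12 spanned 3.48 Mb from C29320806T to C32802369T, with allele frequencies from 0.413 at C31777422T to 0.650 at C31661960T and a median of 0.488. After a pair of G-to-A markers, 6 more followed from C33293811T to C35742003T, with a median of 0.549 and a pair of deep G-to-A markers among them. A block near the end of chromosome 7 ran over 3.13 Mb from C46511264T to C49643550T. It held 12 C-to-T markers, 10 of them of ordinary depth with a median of 0.432. A block of 3 opened chromosome 7, from C51214T to C965626T, at 0.304 and then above 0.5. Summed over the markers of ordinary depth, 0.460 of the reads carried the new base in the chromosome 4 block (0.418 to 0.502; 544 reads). In the chromosome 7 blocks the values were 0.494 (0.458 to 0.530; 751 reads) from C29320806T, 0.591 (0.541 to 0.639; 386 reads) from C33293811T and 0.415 (0.377 to 0.454; 617 reads) from C46511264T. In the block that opens chromosome 7 it was 0.492 (0.423 to 0.562; 197 reads). The block from C33293811T was the only one with an interval above 0.5, and this rested on C35742003T at 68 of 82 reads: without it the sum was 160 of 304 reads (0.526, 0.470 to 0.582). Left out in the same way, C51214T took the opening block to 0.594 (0.507 to 0.675; 128 reads), and the other 3 blocks stayed within their intervals. This step was chosen after the data were seen. The reads of a block come from linked sites and the same plants.

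Allele frequency was near 0.5 on both chromosomes and lower on chromosome 4 than on chromosome 7. Its median was 0.452 on chromosome 4 (interquartile range 0.380 to 0.5) and 0.5 on chromosome 7 (0.439 to 0.55), against 0.464 (0.388 to 0.535) over the 765 markers of chromosomes 1, 2, 3, 5 and 6 and 0.833 on chromosome 8. The single medians of chromosomes 1, 2, 3, 5 and 6 were 0.553, 0.435, 0.512, 0.459 and 0.444. Chromosomes 4 and 7 both lay within that range. On chromosome 4, 107 markers lay below 0.5, 9 at it and 38 above, while on chromosome 7, 96 lay below, 6 at it and 95 above. Frequencies from 0.4 to 0.6 were found at 103 markers of chromosome 4 (66.9%, 59.1 to 73.8%) and at 144 of chromosome 7 (73.1%, 66.5 to 78.8%). Coverage was alike, with a median of 68.5 reads on chromosome 4 and 65 on chromosome 7, and single-marker intervals reached a median of 0.112 and 0.116 to each side. The difference between the chromosomes was not tested, because linked markers of 1 pool offer no independent units.

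**Figure D2:**
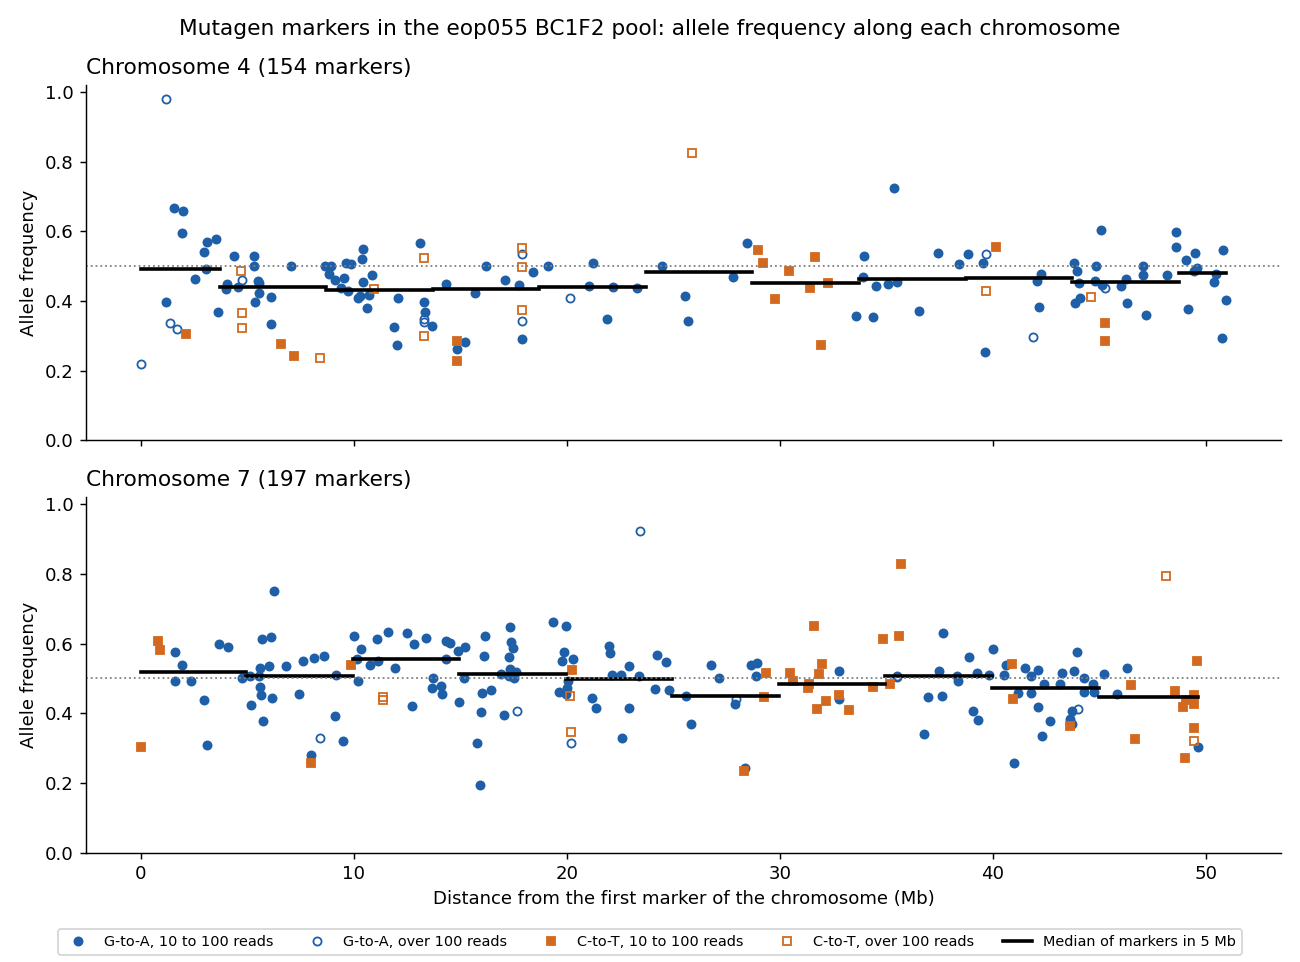
Allele frequency of every marker against its distance in Mb from the first marker of the chromosome, with G-to-A as circles, C-to-T as squares, open symbols for more than 100 reads, black bars for the median of each 5 Mb bin and a dotted line at 0.5. All bin medians of chromosome 4 lie below the line when deep markers are counted, and those of chromosome 7 lie on both sides of it.

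Along chromosome 4 the medians over all markers lay below 0.5 in all 11 bins, from 0.431 at 10 to 15 Mb to 0.491 at 0 to 5 Mb. The first bin was wide, with an interquartile range of 0.351 to 0.587, and its median lay above 0.5, at 0.542, over its 11 markers of ordinary depth. Those 11 had 338 of 637 reads with the new base (0.531, 0.492 to 0.569), and these were the only ones on chromosome 4 with a summed fraction above 0.5. In the next bin, at 5 to 10 Mb, the same sum was 0.429 (0.399 to 0.459; 1047 reads), and at 10 to 15 Mb it was 0.437 (0.412 to 0.462; 1496 reads). It was lowest at 15 to 20 Mb, where 276 of 766 reads over 11 markers gave 0.360 (0.327 to 0.395). In that bin C16132390T, G16132419A and C16132462T lie within 72 bases of each other and may share reads. From 20 Mb on, the summed fraction stayed between 0.443 and 0.472. The interval lay wholly below 0.5 in 7 of the 11 bins. At sites shared with the progenitor, where the progenitor was at 0.4 to 0.6, the median pool fraction was 0.483. Of the 11 intervals 4 lay wholly below that value, and 1 lay wholly above it. This comparison was added after the data were seen. The shared sites were of every type of change and from every sequence, chromosome 8 included, and had no coverage maximum. Whether they are passed on like the markers was not tested, so the counts against 0.483 are a description. These intervals cover the sampling of reads and not of plants.

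Chromosome 7 moved on both sides of 0.5. The bin median was 0.519 at 0 to 5 Mb and 0.507 at 5 to 10 Mb. It was highest at 10 to 15 Mb, at 0.556 (interquartile range 0.484 to 0.604). There 679 of 1235 reads over 21 markers of ordinary depth carried the new base (0.5498, 0.522 to 0.577), the only bin of either chromosome whose interval lay above 0.5. The median was 0.451 at 25 to 30 Mb and 0.507 at 35 to 40 Mb. It was lowest at 45 to 50 Mb, at 0.445, where 382 of 903 reads gave 0.423 (0.391 to 0.456). The bin medians were above 0.5 in 5 bins and below it in the other 5. The interval of the summed fraction lay wholly below 0.5 in 3 bins, at 25 to 30 Mb (0.447, 0.412 to 0.482), at 40 to 45 Mb (0.464, 0.440 to 0.487) and at 45 to 50 Mb, and in 2 of them wholly below 0.483. In 2 other bins it lay wholly above 0.483.

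Among markers of ordinary depth the median absolute difference in allele frequency between neighbours was 0.0781 on chromosome 4 (127 pairs) and 0.0826 on chromosome 7 (182 pairs). The largest differences between neighbours were 0.354 and 0.490. The Pearson correlation of neighbouring frequencies was 0.139 on chromosome 4 and 0.143 on chromosome 7. Single-marker intervals of these markers reached a median of 0.116 and 0.118 to each side, and the part of counting error was not tested. On chromosome 4, G-to-A markers of ordinary depth had a median of 0.457 (112 markers) and C-to-T markers one of 0.371 (16 markers). On chromosome 7 the medians were 0.507 (145 markers) and 0.475 (38 markers). Of the C-to-T markers of ordinary depth on chromosome 4, the 8 in the block had a median of 0.470 and the 8 elsewhere one of 0.285. Whether type or position goes with these values was not tested.

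Single markers were compared with 0.5 by an exact binomial test of their reads, two-sided, with Benjamini-Hochberg adjustment over all 1390 markers at 0.05. Across the pool 14.1% of markers were called below 0.5 and 17.8% above. Of the 351 markers on chromosomes 4 and 7, 46 were called below (13.1%, 9.97 to 17.0%), a share near that of the pool, and 9 above (2.56%, 1.35 to 4.80%). Of the pool's 248 calls above 0.5, 169 were on chromosome 8. On the other chromosomes without 8 the share above was 7.71% (6.03 to 9.82%) and the share below was 16.5% (14.0 to 19.3%). On chromosome 4, 30 of 154 markers were called below (19.5%, 14.0 to 26.4%) and 4 above. On chromosome 7 these were 16 of 197 (8.12%, 5.06 to 12.8%) and 5. The share called below was 22.4%, 23.3% and 22.5% on chromosomes 1, 2 and 3, and 7.08% and 13.2% on chromosomes 5 and 6. The test reads the counts of 1 pool, so a call says that the reads depart from 0.5 and not that another pool would. With a quality minimum of 100 the calls below 0.5 numbered 17 on chromosome 4 and 4 on chromosome 7. Without the markers of more than 100 reads they numbered 18 on chromosome 4.

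**Figure D3:**
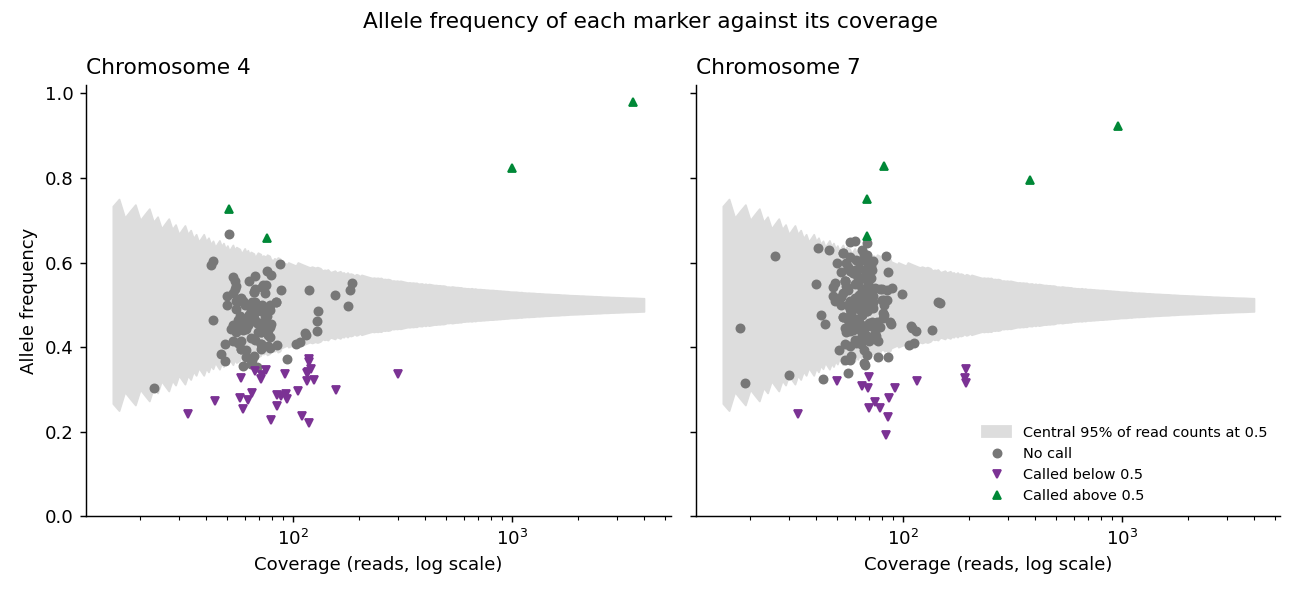
Allele frequency of each marker on chromosomes 4 and 7 against its coverage on a log scale. The grey band is the central 95% of read counts at a fraction of 0.5, triangles are markers called below (down) or above (up) 0.5 by the adjusted binomial test, and the 3 deepest markers, with 3583, 1003 and 953 reads, lie above 0.8.

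Some of the highest markers had very many reads. G2477783A on chromosome 4 had 3508 of 3583 reads (0.979, 0.974 to 0.983) at a variant quality of 29.5, and C27145500T on chromosome 4 had 827 of 1003 (0.825, 0.800 to 0.847). G23471954A on chromosome 7 had 879 of 953 (0.922, 0.904 to 0.938), and C48150555T had 301 of 379 (0.794, 0.751 to 0.832). The nearest listed progenitor site lay 317 bases from G2477783A, 20 from G23471954A, 17 from C48150555T and 28592 from C27145500T. The third deepest sites were low instead, G2681661A on chromosome 4 with 101 of 301 reads (0.336) and G20263769A on chromosome 7 with 61 of 194 (0.314). Others had the usual number of reads, as the next ones did. G36651515A on chromosome 4 had 37 of 51 reads (0.725, 0.591 to 0.829; adjusted exact binomial p = 0.00732), and G3254764A had 50 of 76 (0.658, 0.546 to 0.755; p = 0.0269). G2856535A had 34 of 51 (0.667, 0.530 to 0.780), which did not pass (adjusted exact p = 0.0713). On chromosome 7, C35742003T had 68 of 82 reads (0.829, 0.734 to 0.895; adjusted exact p = 1.58e-08) at a variant quality of 45.5. A listed progenitor site lay 462 bases from C35742003T, and 10339 bases or more from the other markers of ordinary depth in this paragraph. G6303912A had 51 of 68 (0.75, 0.636 to 0.838; adjusted exact p = 0.000242) and G19389431A had 45 of 68 (0.662, 0.543 to 0.763; adjusted exact p = 0.0341). The 2 markers at 0.9 or more were G2477783A and G23471954A, with 3583 and 953 reads, and no marker of ordinary depth reached it.

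Of the 10 lowest markers, 5 on each chromosome, 8 had a variant quality under 100 or a listed progenitor site within 1 kb. Among all 351 markers, 26.2% had a quality under 100 and 15.7% had such a site within 1 kb. A low frequency bears on the quality, so low quality is not a separate trait of these markers. On chromosome 4, G1288476A had 26 of 118 reads (0.220) with a listed progenitor site 111 bases away. C16132390T had 18 of 79 (0.228) at a quality of 25.5, and C9724457T had 26 of 110 (0.236) with a progenitor site 91 bases away. C8476195T had 8 of 33 (0.242) at a quality of 26.5. G40909220A had 15 of 59 (0.254, 0.161 to 0.378; adjusted exact p = 0.000987) at a quality of 195, with the nearest progenitor site 3461 bases away. On chromosome 7, G15961597A had 16 of 83 (0.193, 0.122 to 0.290) at a quality of 26.5 and 53 bases from a progenitor site. C28384080T had 20 of 85 (0.235) at 36.5, and G28404602A had 8 of 33 (0.242) at 28.5. C8050605T had 20 of 78 (0.256), with a progenitor site 365 bases away. G41055066A had 18 of 70 (0.257, 0.169 to 0.370; adjusted exact p = 0.000307) at a quality of 165, and its nearest progenitor site was 56910 bases away. All 10 passed the adjusted test against 0.5.

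Since linked markers share their plants, each marker was also set against the summed reads of up to 10 markers of ordinary depth next to it, 5 on each side. Fisher's exact test, two-sided, was adjusted by Benjamini-Hochberg over the 1339 markers on chromosomes. This comparison was chosen after the data were seen. In all, 8.07% of the markers were called below their neighbours and 4.26% above. On chromosomes 4 and 7 the shares were 22 of 351 below (6.27%, 4.18 to 9.31%) and 10 above (2.85%, 1.55 to 5.16%), both with intervals that hold the share of the pool. Chromosome 4 had 9 below and 6 above, and chromosome 7 had 13 below and 4 above. Of the 32 called, 27 had been called against 0.5 as well.

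Of the 292 markers with ordinary depth and no listed progenitor site within 1 kb, 14 were called (4.79%), 3 above and 11 below. Of the other 59 markers, 18 were called (30.5%): 13 of the 40 deep markers, and 5 of the 19 of ordinary depth with a progenitor site within 1 kb (26.3%). Of the 40 deep markers 36 lay within 1 kb of such a site, and the part of depth in these calls was not tested. On the other chromosomes deep markers were often called as well: 3 of 79 above (3.80%) and 26 below (32.9%). At ordinary depth these were 44 of 909 above (4.84%) and 60 below (6.60%) there. With chromosome 8 left out, they were 3 and 11 of 60 deep markers, and 32 and 43 of 705 of ordinary depth. Among the 14 on chromosome 4 were G36651515A at 0.725, against 0.462 in its neighbours, and G14410809A at 0.566, against 0.362, both above. G40909220A at 0.254, against 0.481, G52022695A at 0.292, against 0.484, and C46557286T at 0.284, against 0.453, were below. On chromosome 7 G6303912A, at 0.75 against 0.460, was above (adjusted Fisher's exact p = 0.000114). Below were G41055066A, at 0.257 against 0.498, C51214T, at 0.304 against 0.561, G8051253A, at 0.279 against 0.491, and 5 others. The sites of this paragraph that are not among the highest or lowest were named after their values were seen.

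Markers with more than 100 reads stood in another setting than the rest. There were 26 of them among 154 on chromosome 4 (16.9%) and 14 among 197 on chromosome 7 (7.11%), against 7.996% on the other chromosomes, where chromosome 2 had 31 of 116 (26.7%) and the rest 3.10 to 8.52%. A position listed in the progenitor lay within 1 kb of 36 of these 40 deep markers (90.0%, 76.9 to 96.0%), against 19 of the 311 of ordinary depth (6.11%, 3.95 to 9.34%). On the other chromosomes the shares were 77.2% of 79 deep markers and 5.94% of 909 of ordinary depth, so deep markers lay near progenitor sites there as well. The deep markers had a median allele frequency of 0.421, a median variant quality of 81.5 and 21 G-to-A against 19 C-to-T changes. Those of ordinary depth had 0.482, 217 and 257 against 54. Of the 40 deep markers 16 were called below 0.5 (40.0%) and 4 above, against 9.65% and 1.61% of those of ordinary depth. On the other chromosomes the shares were 27.8% and 5.06% of deep markers, against 12.7% and 24.6% of those of ordinary depth. Of the 224 calls above 0.5 at ordinary depth there, 169 were on chromosome 8. With chromosome 8 left out, 20 of 60 deep markers were called below and 4 above. At ordinary depth these were then 106 and 55 of 705 markers. More reads let a smaller departure from 0.5 pass the test. What sets the depth of these sites was not tested.

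**Figure D4:**
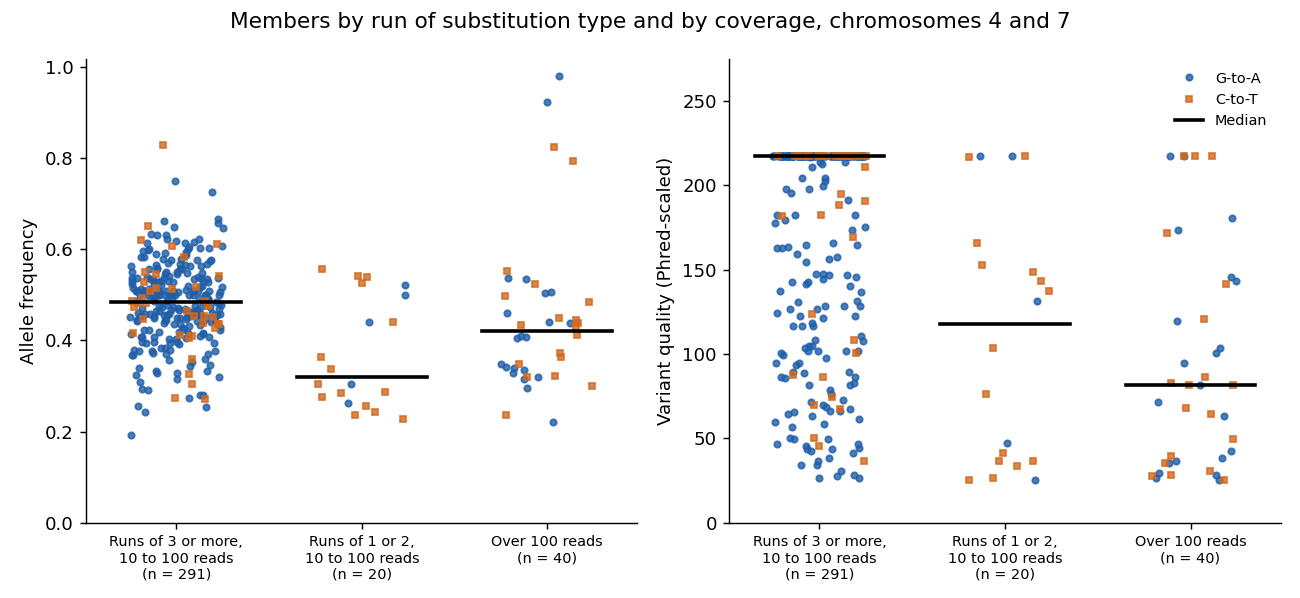
Allele frequency (left) and Phred-scaled variant quality (right) of the 351 markers, split into markers of ordinary depth in runs of 3 or more of 1 type, those of ordinary depth in runs of 1 or 2, and those with over 100 reads. Black bars are medians, circles are G-to-A and squares are C-to-T, and the first class has the highest median in both panels.

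Markers that broke a run of the other type also differed from the run members. Among the 311 markers of ordinary depth, 20 stood in runs of 1 or 2, with 10 on each chromosome, and 15 of these were C-to-T. In allele frequency their median was 0.321 (interquartile range 0.273 to 0.505), against 0.484 (0.434 to 0.536) for the 291 in runs of 3 or more. Their median quality was 117, against 217, and 9 of the 20 had a progenitor site within 1 kb (45.0%), against 10 of the 291 (3.44%). On chromosome 4 the contrast in allele frequency was 0.285 against 0.457, and on chromosome 7 it was 0.440 against 0.507. Of the 10 on chromosome 4, 8 are the C-to-T markers outside the block given above, so this is not a separate observation. Among the 10, C16132390T, G16132419A and C16132462T lie close together, as do C46557283T and C46557286T, and may share reads. The limit of 3 was set after the runs were seen, and no test was made of these medians.

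More of the close pairs lay on chromosome 4. It had 13 pairs of neighbouring markers within 1 kb, of which 8 were within 100 bases, against 4 and 3 on chromosome 7. Chromosome 2 had 17 and 8 among its 116 markers, and the remaining chromosomes had 1 to 5 and 0 to 3. The largest cluster of chromosomes 4 and 7 held 6 markers from G19204005A to G19205231A on chromosome 4. There the first, at 40 of 117 reads (0.342), and C19204363T, at 102 of 185 (0.551), lay furthest apart in allele frequency among the deep ones. C46557283T and C46557286T, 3 bases apart, had 31 of 92 reads (0.337) and 25 of 88 (0.284). On chromosome 7 C11416781T and C11416783T had 49 of 110 reads (0.445) and 50 of 114 (0.439), and G35565266A and G35565271A had 74 of 147 (0.503) and 73 of 144 (0.507). The 27 markers in close pairs of chromosomes 4 and 7 had a median coverage of 117 reads, and 17 of them were deep. Partners differed by a median of 0.0418. Partners a few bases apart can lie on the same reads and are not separate measurements. The clusters named here were chosen after their values were seen.

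The markers could also be set beside the other pool-only changes of both chromosomes that passed the same minimums. Of 705 such sites, the 351 markers made up 49.8%, G-to-T or C-to-A changes 26.7% (188 sites), A-to-G or T-to-C changes 9.65% (68 sites) and the remaining types 13.9% (98 sites). The markers had medians of 0.474 in allele frequency and 67 reads in coverage. The G-to-T or C-to-A sites had medians of 0.262 and 40.5 reads, A-to-G or T-to-C sites 0.403 and 87.5, and the rest 0.382 and 85.5. A variant quality of 217 or more was reached by 163 of the markers (46.4%), against 2.66%, 7.35% and 10.2% of the other classes in that order. Quality chose all of these sites through its minimum, so the differences in quality are a description.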

How the data were processed

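Genomic DNA of 1 eop055 BC1F2 pool and 1 pep1-1 progenitor was sequenced, and each deposited list of variants was matched to its library by the genotype in its sheet name. The tools named, per the submitters' processing notes, are Bowtie2, SAMtools and DESeq, without version or role. The sheet names carry the label V3_6, whose meaning, like the genome build and any earlier filters, was not given in the sources used here. The allele frequency is a fraction per the file headers. The headers reads and quality appear exchanged. Values deposited under reads run over decimals and were taken as the variant quality, a Phred-scaled score. Values deposited under quality are whole and were taken as the count of reads with the new base. The count over the coverage gave the listed fraction within 5e-05 at all 14923 sites of the pool and all 14029 of the progenitor, with coverage being that count over the fraction, rounded. Median coverage was 106 reads in the pool list and 100 in the progenitor list, and 67 at the markers described.

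Both tests on single markers, the exact binomial test and Fisher's exact test, were checked on simulated reads. Named sites were the 5 highest and 5 lowest per chromosome, the 3 deepest, the ends of the 3 longest gaps and runs, the extreme bins and the sites nearest each minimum. The markers, lists and rules were chosen with earlier results of these data known. Alternatives changed the minimums of quality and coverage, set a coverage maximum, and changed the subtraction of the progenitor, types, bins, band, runs, expected fraction and adjustment. Bins needed at least 5 markers for a median. Python 3.11.15, numpy 2.4.6, pandas 2.3.3, scipy 1.17.1 and matplotlib 3.10.9 were used.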

Additional observations from a re-analysis of the deposited data

How the results depend on the processing

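Of 190 values of 30 summary results under alternatives, 153 stayed near the main value (counts and lengths within 1.5 times, medians and shares within their 95% interval) and 37 moved. The number of markers, the highest and lowest bin medians and the densest bins did not move under any of the alternatives run for them, by these margins. The highest bin median of chromosome 4, 0.491, was however above 0.5 in 5 of its alternatives: 0.516 at a coverage minimum of 30 and 0.542 with a quality minimum of 100, a coverage maximum of 100 or either changed subtraction. With no quality minimum there were 55 and 60 type runs on chromosomes 4 and 7, the longest gap of chromosome 4 was 1.11 Mb, and calls against 0.5 were 11 above and 47 below on chromosome 4 and 10 above and 40 below on chromosome 7. With a quality minimum of 100 there were 17 and 13 runs, and calls were 2 above and 17 below on chromosome 4 and 2 above and 4 below on chromosome 7. With a coverage maximum of 100 chromosome 4 had 87.5% G-to-A, 17 runs, 2 calls above and 18 below, and chromosome 7 had 3 above. Calls against neighbours were then 1 above and 4 below on chromosome 4 and 2 above on chromosome 7. When progenitor sites past the same minimums alone were subtracted, calls above were 8 and 9 on chromosomes 4 and 7, and chromosome 7 had 40 runs. When positions within 100 bases of a progenitor site were left out too, chromosome 7 had 15 runs, a longest run of 68 and 3 calls above. The minority type alone had medians of 0.411 and 0.459, and the band of 0.45 to 0.55 held 63 and 89 markers, fewer by construction. In bins of 2 Mb the sparsest held the equivalent of 2.5 and 7.5 markers per 5 Mb. Leaving out lone markers gave 11 and 16 runs and a longest run of 32 on chromosome 4. Benjamini-Yekutieli adjustment left 2 calls above on chromosome 4. Except where the construction shows it, the cause was not tested. Of 42 named sites, 16 were no markers at a quality minimum of 100, 11 at a coverage maximum of 100 and 8 with the wider subtraction. Coverage near 67 reads limits a single marker to about 0.115 to each side. No paired analysis was possible because both groups have 1 library each, so leaving out a replicate was not possible either.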
